A study of Mus musculus with 17 samples.

Results

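The levels of 10 genes of retinoic acid signalling and meiotic entry were followed across the libraries of a study of mouse male germ cells. The genes were Stra8, Aldh1a1, Aldh1a2, Cyp26b1, Rara, Rarg, Rarb, Crabp1, Crabp2 and Stra6. They were chosen by name, and all 10 were found among the 23980 RefSeq genes of each expression table. These genes and the gene lists used below were chosen with earlier results of these data known. Strand-specific polyA(+) RNA-seq had been performed on 17 libraries of strain C57BL6/J mice, in 7 groups. Leptotene/zygotene (L/Z) spermatocytes, germ cells in the first stages of meiotic prophase, were sorted by FACS from testes at 3 to 4 weeks of age, with 2 libraries for WT, 2 for Pld6 KO and 2 for Dnmt3l KO. Whole testes at postnatal day 0 (P0) gave 2 libraries of WT, 4 of Pld6 KO, 2 of Dnmt3l KO and 3 of DKO, which lacks both genes. Pld6 encodes a mitochondrial protein needed to make piRNAs, and Dnmt3l encodes a cofactor of de novo DNA methyltransferases. Both are lost in every cell of these mice, not in germ cells alone, and mutant germ cells die before they complete zygotene, so that sorted mutant and WT cells need not have the same mixture of substages. The labels call the libraries of a group biological replicates without naming animals, so the tests below measure the spread between libraries.

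Retinoic acid is made from vitamin A in the testis and drives the start of meiosis. Retinol enters cells through the STRA6 receptor, is oxidised to retinaldehyde and then to retinoic acid by the ALDH1A enzymes, and is cleared by CYP26 enzymes. CRABP proteins bind retinoic acid in the cytosol, while nuclear receptors (RARA, RARB and RARG, paired with RXR) bind DNA at direct repeats of a short motif and switch target genes on or off. Stra8, induced by retinoic acid, is a transcriptional regulator required for meiotic initiation. In the fetal testis CYP26B1, made by somatic cells, keeps retinoic acid away from germ cells, which stay out of meiosis until after birth.

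Library depth ranged from 5194238 to 14578341 fragments at L/Z and from 9900346 to 23498968 at P0. The genotypes were checked first on the targeted genes. Pld6 had 344 and 352 counts in L/Z WT and 0 in both L/Z Pld6 KO libraries, and 40 and 57 counts in P0 WT, 0 to 2 in Pld6 KO and 0 in every DKO library. Dnmt3l had 11 and 19 counts in L/Z WT, 0 in both L/Z Dnmt3l KO libraries, 53 and 72 in P0 WT and 0 to 3 in P0 Dnmt3l KO and DKO. All 8 markers of L/Z spermatocytes reached 10 counts in every L/Z library, but so did 8 of 9 Sertoli cell markers and 6 of 7 spermatogonia markers. At P0 all 9 Sertoli and all 7 Leydig markers reached 10 counts in every library, as did 7 of 8 prospermatogonia markers. Some libraries stood apart. L/Z WT replicate 1 and L/Z Pld6 KO replicate 1 had 8.27% and 8.06% of fragments on the ribosomal precursor Rn45s, against at most 0.3005% in the other L/Z libraries. Among P0 libraries this share was 4.43% in DKO replicate 1 and 0% in every Pld6 KO library. It was 0.104% to 0.981% in the remaining WT, Dnmt3l KO and DKO libraries. The absence of Rn45s thus lines up with the P0 Pld6 KO group, and its part in the P0 comparisons was not tested. P0 Dnmt3l KO replicate 1 had 83.8 summed CPM (counts scaled to library size) of 10 late germ cell markers, against 4.53 to 15.1 in the other 10 P0 libraries, and 225 CPM of L/Z markers against 47.6 to 93.8. Ldhc alone gave 65.7 CPM of the late germ cell sum, while the spermatid genes Prm1, Prm2 and Tnp2 had 2, 0 and 0 counts in this library. P0 Pld6 KO replicate 1 had 123 summed CPM of prospermatogonia markers, against 227 to 519 elsewhere at P0, and 35 counts of Prm1 and 46 of Prm2, spermatid genes with 0 to 3 counts in every other P0 library. Where leaving out P0 Dnmt3l KO replicate 1 or P0 Pld6 KO replicate 1 changed the direction of a value given here for the 10 genes, the value without it follows. The same was done where it moved the value by more than its standard error. Values without P0 DKO replicate 1 are not given.

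To place the genes on one scale, levels in WT were compared as FPKM, which divides by transcript length. In L/Z spermatocytes Crabp1 was highest, with 329 ± 44.1 FPKM (SD, n = 2), followed by Stra8 with 164 ± 54.3 FPKM. Aldh1a2, Aldh1a1, Rarg and Rara lay at 35.2 ± 9.80, 31.1 ± 13.9, 21.1 ± 1.62 and 14.6 ± 1.84 FPKM. Aldh1a1 overlapped its neighbours Aldh1a2 and Rarg, so their order was not resolved. Cyp26b1 followed with 6.03 ± 2.18 FPKM, then Crabp2 with 3.03 ± 0.348 and Stra6 with 0.955 ± 0.141. Rarb was lowest with 0.295 ± 0.0804 FPKM. In P0 testes the order was led by Aldh1a1, with 594 ± 77.3 FPKM, far above Rara (36.9 ± 4.49), Cyp26b1 (35.3 ± 10.8) and Stra6 (20.2 ± 0.501). Rara and Cyp26b1 overlapped. Aldh1a2 had 15.5 ± 3.88, Crabp1 8.81 ± 0.530, Rarg 6.27 ± 1.48 and Crabp2 2.85 ± 0.204 FPKM. Rarb and Stra8 were the lowest at P0 and overlapped, with 0.848 ± 0.161 and 0.840 ± 0.0855 FPKM. Crabp1 and Stra8 were thus the 2 highest genes in L/Z spermatocytes, and Aldh1a1, Stra6, Cyp26b1, Rara and Rarb stood higher in whole P0 testes. The stages differ in cell composition, read type and input, and the tables were normalized separately, so these levels are set side by side without a test.

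**Figure D1:**
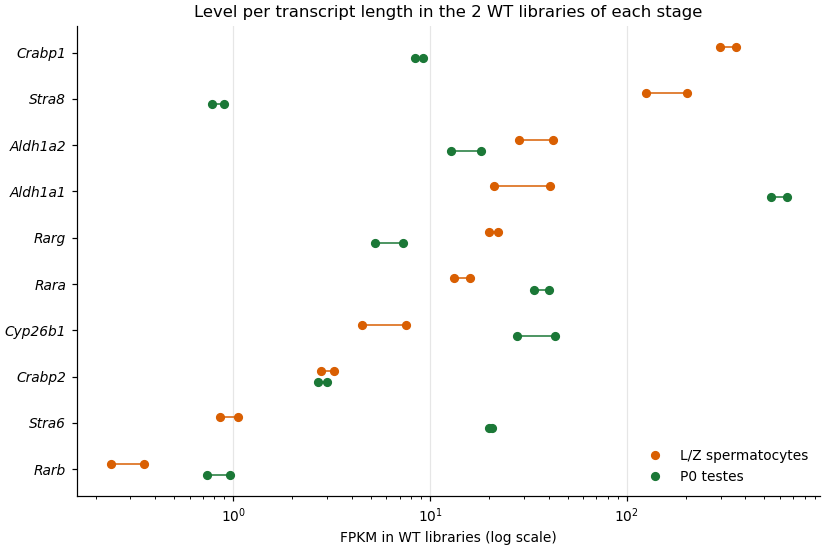
FPKM of the 10 genes on a log axis, with the 2 WT libraries of L/Z spermatocytes (orange) and of P0 testes (green) as points joined by a line. Crabp1 and Stra8 lie above 100 FPKM only at L/Z and Aldh1a1 only at P0.

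All 10 genes passed the filter on low counts at both stages, and each mutant was compared with WT by edgeR's quasi-likelihood test on all genes. Calls required a Benjamini-Hochberg FDR under 0.05 together with a fold change over 2. In L/Z spermatocytes Rara, the receptor alpha gene, fell in Dnmt3l KO, and it was the only one of the 10 genes called, where 5.47% of all tested genes were called and 1.58% were called lower. The median log2 fold change of the 10 genes in Dnmt3l KO was -0.61, with 7 below 0 and 3 above, beside -0.04 over all genes. In Pld6 KO 0 of 10 genes were called (0.225% of all genes were), with a median log2 fold change of -0.15. Between the mutants 0 of 10 were called (0.0477% of all genes), with a median log2 fold change of -0.38. Unadjusted p-values under 0.05 were found for 6, 0 and 2 of the 10 genes in these comparisons, and for 26.7%, 9.17% and 17.5% of all genes. The DESeq2 Wald test called 3 of the 10 genes in Dnmt3l KO, beside 994 of all 14662 genes, and 0 in the other L/Z comparisons. With limma on log2(FPKM + 1) 0 were called in each. With 2 libraries a group, groups often fail to overlap: in Dnmt3l KO 2 of the 10 genes lay wholly above and 6 wholly below WT, while 28.1% and 27.5% of all genes did so (55.7% together).

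**Figure D2:**
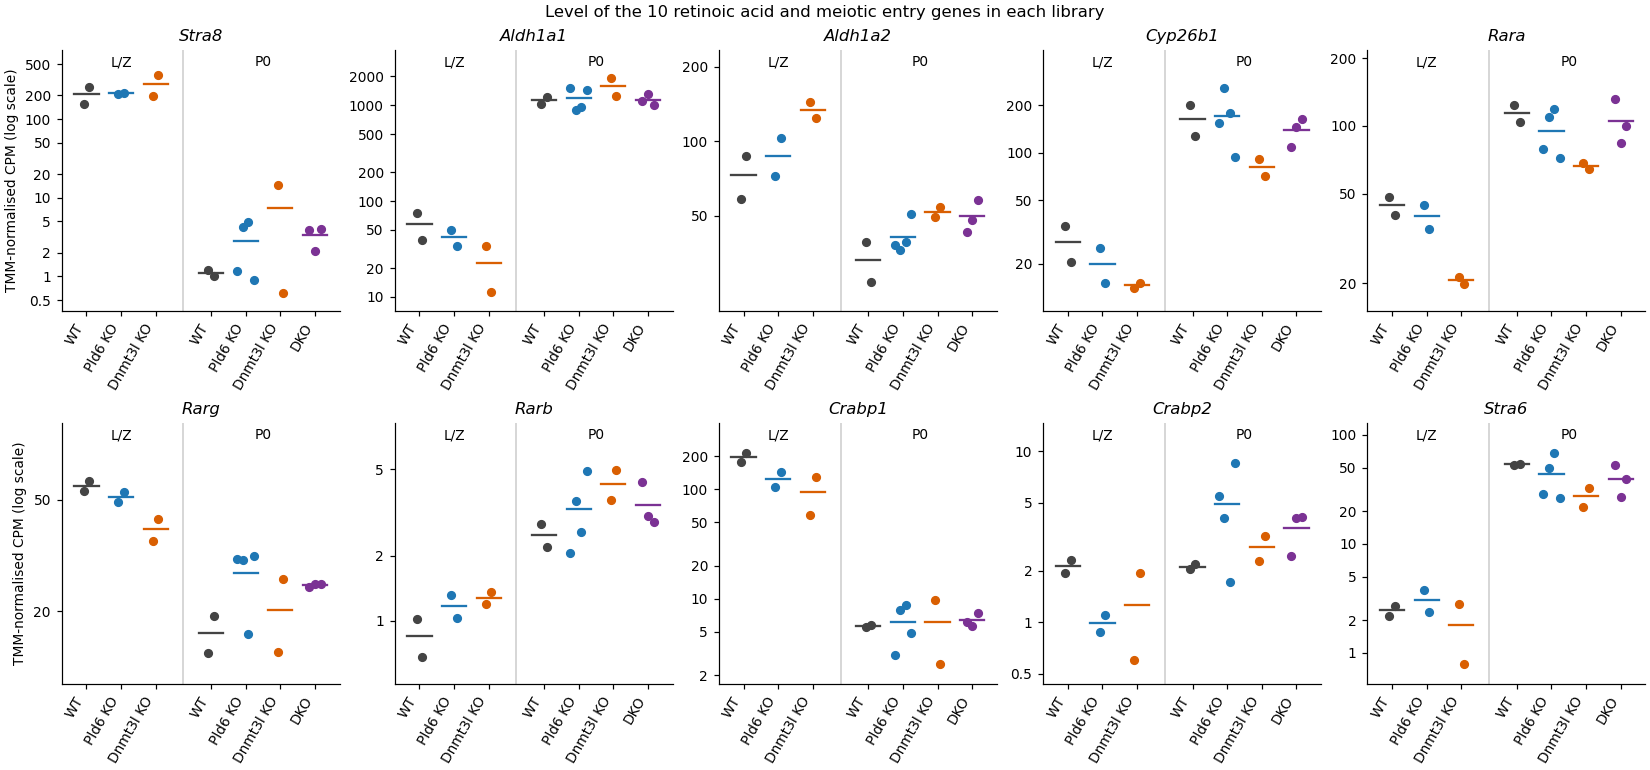
TMM-normalised CPM of each of the 10 genes in every library on log axes that differ between panels, with 1 point per library and a bar at the group mean. Rara is lowest in the 2 L/Z Dnmt3l KO libraries (19.9 and 21.2 CPM), and P0 Stra8 is highest in 1 Dnmt3l KO library (14.4 CPM).

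The receptors were examined first. Rara (chromosome 11, 98927800 to 98974942, GRCm38) encodes the alpha receptor, which is needed for spermatogenesis. Its level in L/Z spermatocytes was 48.4 and 40.1 CPM in WT, 44.3 and 34.9 CPM in Pld6 KO and 21.2 and 19.9 CPM in Dnmt3l KO. Both Dnmt3l KO libraries were below all other L/Z libraries, and Pld6 KO overlapped WT. Summed spermatogonia markers were likewise lower in Dnmt3l KO (720 and 1201 CPM in replicates 1 and 2, against 1578 to 1711 CPM in WT). So were summed Sertoli markers (356 and 104 CPM in the same order, against 376 to 584 CPM in WT). The lists thus differed in which replicate was lower, and their part in the Rara values was not tested. The log2 fold change in Dnmt3l KO was -1.11 (SE 0.25, edgeR FDR 0.0274) and in Pld6 KO -0.16 (SE 0.24, edgeR FDR 0.862). Against Pld6 KO, Dnmt3l KO differed by -0.95 (SE 0.25, edgeR FDR 0.136) and was not called. The Rara call did not survive every choice. It was lost without WT replicate 1, Dnmt3l KO replicate 1 or Dnmt3l KO replicate 2 (edgeR FDR 0.126, 0.157 and 0.0834, with log2 fold changes of -0.97, -1.17 and -1.06), and when GC content and the length of transcripts were corrected for, a choice made after seeing the data, which gave -0.65 (edgeR FDR 0.129). With a factor for the Rn45s-rich libraries the value was -0.95 (edgeR FDR 0.0435), under a 2-fold change. In all, 10 of 16 alternatives kept the call, among them the same fit without the fold threshold, which could not lose it. At P0 Rara was 124 and 104 CPM in WT, 68.6 and 64.6 CPM in Dnmt3l KO, 72.0 to 119 CPM in Pld6 KO and 83.9 to 132 CPM in DKO. Dnmt3l KO lay below WT, with a log2 fold change of -0.78 (SE 0.26, edgeR FDR 0.310) that was not called. DKO, which also lacks Dnmt3l, overlapped WT, with a log2 fold change of -0.12 (SE 0.23, edgeR FDR 0.939). It exceeded Dnmt3l KO by 0.66 (SE 0.24, edgeR FDR 0.189), which was not called.

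Rarg (chromosome 15, 102234938 to 102257522) encodes the gamma receptor, known in the testis from spermatogonia. At L/Z it had 53.6 and 58.2 CPM in WT, 48.8 and 53.4 CPM in Pld6 KO and 35.6 and 42.8 CPM in Dnmt3l KO. The log2 fold change of -0.51 in Dnmt3l KO (SE 0.22, edgeR FDR 0.169) was not called, and the offset for GC content and length gave -0.07 (edgeR FDR 0.884). At P0 WT had 14.3 and 19.3 CPM, and Pld6 KO had 30.7, 30.6, 16.7 and 31.6 CPM, so that 3 of 4 Pld6 KO libraries were above both WT libraries and 1 lay between them. This gave a log2 fold change of 0.71 (SE 0.28, edgeR FDR 0.963) in Pld6 KO, which was not called. The 3 DKO libraries were close together, at 24.5 to 25.1 CPM. In P0 Dnmt3l KO the value was 0.27 (SE 0.32, edgeR FDR 0.733), and 0.63 without replicate 1 (SE 0.34, edgeR FDR 0.645).

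Rarb (chromosome 14, 16430839 to 17082331) encodes the beta receptor and is itself a textbook target of retinoic acid. Promoters of 300 bases (250 before to 50 after the start site, RefSeq, GRCm38.p6) were read for 9 of the 10 genes, 17 promoters in all. They were searched on both strands for the receptor motif, with the consensus AGGTCA, its close spelling GGGTCA, a further known spelling AGTTCA and the fourth spelling GGTTCA, and for direct repeats of it spaced by 1, 2 or 5 bases. Rarb held the only such repeat among the 17, spaced by 5 bases and beginning 53 bases before the start site, whereas 0.588% of 32851 promoters held any of these repeats and 0.0974% held 1 spaced by 5. The promoter is shown with every match of the motif in capitals, because it displays the sequence through which these receptors bind DNA. It lies at chr14:16575427-16575726 on the minus strand.
Rarb: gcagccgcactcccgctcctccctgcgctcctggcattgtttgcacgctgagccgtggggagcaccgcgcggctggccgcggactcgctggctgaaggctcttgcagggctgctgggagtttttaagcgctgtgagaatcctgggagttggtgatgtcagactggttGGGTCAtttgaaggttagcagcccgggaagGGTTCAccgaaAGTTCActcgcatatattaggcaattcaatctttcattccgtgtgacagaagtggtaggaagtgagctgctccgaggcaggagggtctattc
Rarb transcripts were scarce in every library. The L/Z libraries had 12 and 8 counts in WT, 9 and 13 counts in Pld6 KO and 6 and 19 counts in Dnmt3l KO, or 0.680 to 1.36 CPM over all 6. At P0 the 11 libraries had 25 to 68 counts, or 2.06 to 4.95 CPM. The log2 fold changes were 0.60 in L/Z Dnmt3l KO (SE 0.65) and 0.77 in P0 Dnmt3l KO (SE 0.45), with edgeR FDR of 0.584 and 0.470. With so few counts, changes of the size of these errors were not detectable.

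The target gene Stra8 (chromosome 6, 34920163 to 34939344) was examined next. Its promoter at chr6:34920698-34920997 on the plus strand held the motif 2 times, but no direct repeat at the spacings searched. It is printed with the motif matches in capitals to set it beside that of Rarb, and 13.1% of all promoters held the motif at least 2 times.
Stra8: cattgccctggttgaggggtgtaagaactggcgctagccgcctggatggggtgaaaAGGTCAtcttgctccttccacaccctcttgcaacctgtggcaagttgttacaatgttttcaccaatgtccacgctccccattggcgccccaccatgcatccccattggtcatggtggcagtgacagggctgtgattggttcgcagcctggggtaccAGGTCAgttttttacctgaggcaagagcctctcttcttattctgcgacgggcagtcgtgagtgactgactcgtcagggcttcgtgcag
In L/Z spermatocytes Stra8 was abundant in all groups, with 157 and 254 CPM in WT, 209 and 218 CPM in Pld6 KO and 199 and 368 CPM in Dnmt3l KO. The groups overlapped. The log2 fold change was 0.05 in Pld6 KO (SE 0.31, edgeR FDR 0.969) and 0.46 in Dnmt3l KO (SE 0.31, edgeR FDR 0.357). Stra8 transcripts were therefore measured in the mutants at levels not separable from WT at this precision.

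At P0, before meiosis, Stra8 had 14 and 12 counts in WT, 14, 53, 57 and 9 counts in Pld6 KO, 164 and 7 counts in Dnmt3l KO and 36, 28 and 96 counts in DKO. These were 1.19 and 1.01 CPM in WT, 0.906 to 4.88 CPM in Pld6 KO, 14.4 and 0.607 CPM in Dnmt3l KO and 2.12 to 4.02 CPM in DKO. All 3 DKO libraries were above both WT libraries, while the Pld6 KO libraries fell on either side of WT. The log2 fold changes were 1.35 in Pld6 KO (SE 0.97), 2.76 in Dnmt3l KO (SE 1.06) and 1.59 in DKO (SE 1.00), and none was called (edgeR FDR 0.970, 0.334 and 0.737). The 2 Dnmt3l KO libraries disagreed. Replicate 1 is the library with the many Ldhc and L/Z marker transcripts. Without it the log2 fold change in Dnmt3l KO turned to -0.85 (SE 1.06), and without replicate 2 it was 3.67 (SE 0.78). DKO differed from Dnmt3l KO by -1.16 (SE 0.85, edgeR FDR 0.471), which became 2.44 without replicate 1 (SE 1.01, edgeR FDR 0.669). The value in Pld6 KO was 1.61 without its replicate 1 (SE 0.98, edgeR FDR 0.896). In replicate 1 the spermatocyte genes Ldhc, Tex101 and Meiob had 749, 732 and 69 counts, against 24, 92 and 8 in replicate 2. The part of these transcripts in the Stra8 value was not tested.

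The enzymes that make retinoic acid were compared next. Aldh1a1 (chromosome 19, 20492583 to 20643463) encodes a retinaldehyde dehydrogenase known in the testis from Sertoli cells. At L/Z it had 75.2 and 39.0 CPM in WT, 49.7 and 34.1 CPM in Pld6 KO and 33.6 and 11.2 CPM in Dnmt3l KO. The Dnmt3l KO libraries were the lowest, and the log2 fold change of -1.40 (SE 0.46, edgeR FDR 0.0873) was not called. It ranged from -2.38 without Dnmt3l KO replicate 1 to -0.77 without Dnmt3l KO replicate 2, and passed without WT replicate 2 (-1.80, edgeR FDR 0.0442). In all it was called under 5 of 16 alternatives, among them the DESeq2 Wald test (FDR 0.0197) and the replicate block (-1.46, edgeR FDR 0.0223). It was not called with the offset for GC content and length (-1.57, edgeR FDR 0.0974). The summed CPM of Sertoli markers followed a like order, with 584 and 376 in WT, 550 and 369 CPM in Pld6 KO and 356 and 104 CPM in Dnmt3l KO. Their part in the Aldh1a1 values was not tested, and in such bulk samples fewer cells of a type and less RNA per cell cannot be told apart. In P0 testes Aldh1a1 reached 900 to 1950 CPM in the 11 libraries. WT had 1030 and 1218 CPM and Dnmt3l KO 1950 and 1250 CPM, with a log2 fold change of 0.51 (SE 0.29, edgeR FDR 0.465) in Dnmt3l KO, and of 0.09 (SE 0.25) and 0.02 (SE 0.27) in Pld6 KO and DKO. Without Dnmt3l KO replicate 1 the value in Dnmt3l KO was 0.15 (SE 0.33, edgeR FDR 0.921), and without Pld6 KO replicate 1 that in Pld6 KO was -0.04 (SE 0.25, edgeR FDR 0.993).

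Aldh1a2 (chromosome 9, 71215789 to 71296243), a retinaldehyde dehydrogenase known from germ cells, pointed the other way. At L/Z it had 58.6 and 87.4 CPM in WT, 72.5 and 103 CPM in Pld6 KO and 144 and 124 CPM in Dnmt3l KO. Both Dnmt3l KO libraries were above all others, and the log2 fold change of 0.87 (SE 0.26, edgeR FDR 0.0617) was not called, though it passed without WT replicate 2 (1.19, edgeR FDR 0.0353). With the offset for GC content and length the L/Z value was 0.99 (edgeR FDR 0.0602). At P0 the 3 mutant groups had means above WT. WT had 39.2 and 27.0 CPM, Pld6 KO 36.2 to 51.0, Dnmt3l KO 49.2 and 54.1 and DKO 43.1 to 57.9. The log2 fold changes were 0.31 (SE 0.20), 0.64 (SE 0.23) and 0.59 (SE 0.21), and none was called (edgeR FDR 0.963, 0.315 and 0.466). The 3 comparisons share the WT libraries. Among all promoters, that of Aldh1a2 was rich in CpG, the dinucleotide at which DNA is methylated, with 50 in 300 bases, more than in 99.1% of promoters, whereas the 2 promoters of Aldh1a1 held 3 and 1 and the median promoter 7.

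Cyp26b1 (chromosome 6, 84571414 to 84593908) encodes the enzyme that removes retinoic acid. At L/Z it had 7.57 and 4.49 FPKM in WT, 5.56 and 3.26 FPKM in Pld6 KO and 3.15 and 3.30 FPKM in Dnmt3l KO, so that the Dnmt3l KO libraries lay below WT and among the lowest. The log2 fold change of -0.90 in Dnmt3l KO (SE 0.34, edgeR FDR 0.122) was not called, and the offset for GC content and length gave -0.58 (edgeR FDR 0.281). At P0 Cyp26b1 had 199 and 127 CPM in WT and 155, 257, 178 and 93.6 CPM in Pld6 KO. It had 91.8 and 70.9 CPM in Dnmt3l KO and 109 to 164 CPM in DKO. Dnmt3l KO was below every other P0 library, but DKO, which lacks Dnmt3l too, overlapped WT. The log2 fold change was -1.003 in Dnmt3l KO (SE 0.37, edgeR FDR 0.322) and -0.22 in DKO (SE 0.33, edgeR FDR 0.912), and DKO exceeded Dnmt3l KO by 0.78 (SE 0.34, edgeR FDR 0.255). None of these was called. Without Dnmt3l KO replicate 1 the value in Dnmt3l KO was -1.21.

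Among the binding proteins, Crabp1 (chromosome 9, 54764748 to 54773110) was the highest of the 10 genes per length (FPKM) in L/Z WT. It had 179 and 217 CPM in WT, 104 and 143 CPM in Pld6 KO and 58.0 and 130 CPM in Dnmt3l KO. Every mutant library was below both WT libraries. The log2 fold changes of -0.68 in Pld6 KO (SE 0.33, edgeR FDR 0.556) and -1.06 in Dnmt3l KO (SE 0.33, edgeR FDR 0.0729) were not called. The value in Dnmt3l KO was -0.62 without its replicate 1 and -1.77 without its replicate 2, which passed (edgeR FDR 0.0368). Crabp1 was also called with the factor for the Rn45s-rich libraries (-1.23, edgeR FDR 0.0397), and under 7 of 16 alternatives in all, among them the DESeq2 Wald test (FDR 0.0102) and the replicate block (-1.15, edgeR FDR 0.0263). The offset for GC content and length moved it to -0.64 in Dnmt3l KO (edgeR FDR 0.220) and -0.19 in Pld6 KO (edgeR FDR 0.966). Spermatogonia markers moved alongside, with summed CPM of 1711 and 1578 in WT, 1339 and 1405 CPM in Pld6 KO and 720 and 1201 CPM in Dnmt3l KO, and their part in the Crabp1 values was not tested. At P0 Crabp1 was low in all 11 libraries, between 2.52 and 9.65 CPM. Its log2 fold change of 0.10 in P0 Dnmt3l KO (SE 0.54, edgeR FDR 0.947) became -1.17 without replicate 1 (SE 0.58, edgeR FDR 0.616). Crabp2 (chromosome 3, 87948693 to 87953372) had only 3 to 27 counts in the L/Z libraries, and its log2 fold changes of -1.07 in Pld6 KO (SE 0.66) and -0.61 in Dnmt3l KO (SE 0.64) were not called. At P0 it had 2.04 and 2.18 CPM in WT and 5.45, 4.05, 1.71 and 8.55 CPM in Pld6 KO, so that 3 of 4 Pld6 KO libraries were above WT (log2 fold change 1.22, SE 0.52, edgeR FDR 0.963).

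Stra6 (chromosome 9, 58063793 to 58154004), the receptor for retinol carried by RBP4, was low in L/Z spermatocytes, with 11 to 32 counts a library. At P0 WT had 53.5 and 54.6 CPM, Pld6 KO 28.7, 49.5, 68.8 and 26.6 CPM, Dnmt3l KO 22.0 and 32.5 CPM and DKO 26.7 to 52.8 CPM. Dnmt3l KO and DKO lay below WT, and the Pld6 KO libraries on both sides. The log2 fold change of -0.99 in Dnmt3l KO (SE 0.41, edgeR FDR 0.349) and of -0.46 in DKO (SE 0.36, edgeR FDR 0.805) were not called.

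**Figure D3:**
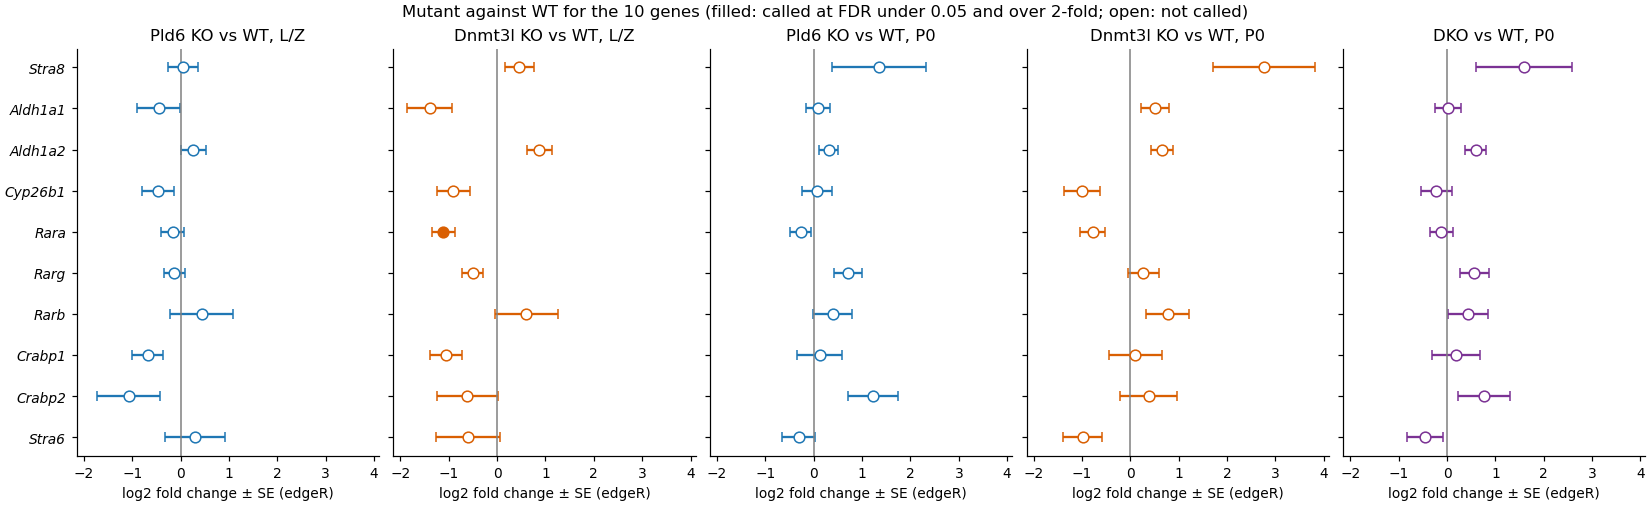
Log2 fold change with its standard error (edgeR) of the 10 genes in the 5 comparisons with WT, filled where called. Rara in L/Z Dnmt3l KO is the filled point (-1.11), and P0 Stra8 has the widest errors (SE 0.97 to 1.06).

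In P0 testes 0 of the 10 genes were called in any of the 5 comparisons (edgeR). Over all genes, the shares called against WT were 0.00629% for Pld6 KO, 0% for Dnmt3l KO and 0.0126% for DKO, and 0% and 0.0755% in DKO against Pld6 KO and Dnmt3l KO. Of the 10 genes, 2, 5 and 1 had an unadjusted p-value under 0.05 in Pld6 KO, Dnmt3l KO and DKO, beside 5.06%, 12.9% and 7.97% of all genes. Against Pld6 KO and Dnmt3l KO, DKO had 0 and 2 such genes of 10, beside 6.02% and 17.8% of all genes. The DESeq2 Wald test and limma also called 0 of the 10 genes in each. In Dnmt3l KO, 4 of the 10 genes lay wholly above WT and 3 wholly below, as did 25.3% and 24.3% of all genes (49.6% together). In DKO 5 lay above and 1 below, as did 15.7% and 13.4% of all genes (29% together). In Pld6 KO, with 4 libraries, all 10 overlapped WT, where 11.5% of all genes did not. The median log2 fold change of the 10 genes against WT was 0.22 for Pld6 KO, 0.32 for Dnmt3l KO and 0.32 for DKO, beside 0.02, 0.03 and 0.01 over all genes. Without replicate 1 of Dnmt3l KO its median turned to -0.29, with 5 of the 10 genes above 0 and 5 below, and without replicate 1 of Pld6 KO that of Pld6 KO was 0.35.

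The mutant effect was then compared between the stages, as (KO minus WT at L/Z) minus (KO minus WT at P0) on the log2 scale over 14 libraries. It differed in 0 of the 10 genes for either mutation at an edgeR FDR under 0.05, where 0.0121% (Pld6 KO) and 0.665% (Dnmt3l KO) of 16547 genes differed. The unadjusted p-value was under 0.05 for 1 of the 10 genes in each, beside 9.52% (Pld6 KO) and 17.2% (Dnmt3l KO) of all genes, and the DESeq2 Wald test also called 0. For Dnmt3l KO this was Aldh1a1, which was lower in L/Z Dnmt3l KO and higher in P0 Dnmt3l KO, a difference of -1.97 (SE 0.63, edgeR FDR 0.136), and of -1.63 without P0 Dnmt3l KO replicate 1 (SE 0.68, edgeR FDR 0.356). The difference of Stra8 turned from -2.30 (SE 1.23, edgeR FDR 0.358) to 1.27 without that library (SE 1.23, edgeR FDR 0.699). For Pld6 KO it was Crabp2, with -2.31 (SE 0.88, edgeR FDR 0.453). Stage cannot be told apart from cell composition, sorting and read type in this test.

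Other genes of the retinoid pathway were read from a list of 43, of which 29 passed the filter at L/Z and 35 at P0. In L/Z Dnmt3l KO 2 rose, 1 fell and 26 were not called, so that 10.3% were called beside 5.47% of all genes, with a median log2 fold change of -0.29 beside -0.04 over all genes. Rdh10, which makes the first oxidation of retinol to retinaldehyde, rose by 1.25 on the log2 scale (SE 0.33, edgeR FDR 0.0430), with 14.1 and 27.6 CPM in WT and 58.2 and 41.9 CPM in Dnmt3l KO. Rdh14, another retinol dehydrogenase, rose by 1.17 (SE 0.29, edgeR FDR 0.0371). Nrip1, a corepressor of nuclear receptors, had a log2 fold change of -1.95 (SE 0.41, edgeR FDR 0.0234), with 16.5 and 8.93 CPM in WT and 4.20 and 2.65 CPM in Dnmt3l KO. The count of 3 became 0 without WT replicate 1 or Dnmt3l KO replicate 1, 1 without Dnmt3l KO replicate 2 and 5 without WT replicate 2. Rxra, the heterodimer partner, had -0.80 (SE 0.23, edgeR FDR 0.0611), Rxrb -0.08 (SE 0.21, edgeR FDR 0.834), the retinol storage enzyme Lrat 0.31 (SE 0.69, edgeR FDR 0.807) and the retinaldehyde reductase Dhrs3 0.28 (SE 0.68, edgeR FDR 0.825). Rxrg had 1 to 7 counts in the L/Z libraries. In L/Z Pld6 KO 0 of 29 were called (0.225% of all genes were), with 5 at an unadjusted p-value under 0.05, beside 9.17% of all genes. The smallest p was that of the coactivator Ncoa3 (log2 fold change 0.65, SE 0.20, edgeR FDR 0.349). Between the L/Z mutants 0 were called by edgeR and 3 by DESeq2, beside 7 and 355 of all 14662 genes. An unadjusted p-value under 0.05 (edgeR) was found for 10, beside 17.5% of all genes, and Nrip1 had the smallest p (-2.39, SE 0.41, edgeR FDR 0.0623).

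At P0 0 of 35 retinoid genes were called by edgeR in any mutant against WT, with 6, 10 and 7 at an unadjusted p-value under 0.05 in Pld6 KO, Dnmt3l KO and DKO, beside the 5.06%, 12.9% and 7.97% of all genes. The DESeq2 Wald test called 0, 2 and 1, beside 14, 71 and 62 of all 15901 genes. The smallest p-values were those of Rbp4 in Pld6 KO (log2 fold change 1.27, SE 0.37, edgeR FDR 0.963) and Rarres1 in DKO (-0.98, SE 0.25, edgeR FDR 0.361). The plasma retinol carrier Rbp4 differed in its Dnmt3l KO effect between stages, by -2.04 (SE 0.42, edgeR FDR 0.0445). Its Pld6 KO effect differed by a like amount, -2.01 (SE 0.40, edgeR FDR 0.175), which was not called, and both use the same WT libraries. In Dnmt3l KO the log2 fold change of Rbp4 was -0.53 at L/Z (SE 0.26, edgeR FDR 0.219) and 1.48 at P0 (SE 0.41, edgeR FDR 0.261). At P0 it had 1.02 and 1.34 CPM in WT and 3.16 and 3.47 CPM in Dnmt3l KO. These values rest on only 12 and 16 counts in WT and 36 and 40 counts in Dnmt3l KO. Neither effect was called within its stage. The stage difference of Rbp4 was called under 5 of 12 alternative settings (highest edgeR FDR 0.215, without P0 WT replicate 1).

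Genes of meiotic entry and early prophase were read from a list with 41 genes in the tables, of which 40 passed the filter at each stage. In L/Z Dnmt3l KO 11 rose, 2 fell and 27 were not called, 32.5% of those tested beside 5.47% of all genes, and the median log2 fold change was 0.64 beside -0.04 over all genes. Meiob, which acts in meiotic recombination, rose by 2.17 (SE 0.45, edgeR FDR 0.0233), with 36.2 and 98.5 CPM in WT and 371 and 238 CPM in Dnmt3l KO. Prdm9, the methyltransferase that places recombination hotspots, rose by 1.88 (SE 0.30, edgeR FDR 0.0107). Meioc (Gm1564 in the tables) and Ythdc2, partners that promote the switch from mitosis to meiosis, rose by 1.71 (SE 0.28, edgeR FDR 0.0113) and 1.51 (SE 0.25, edgeR FDR 0.0124). Hormad1 and Hormad2, chromosome axis proteins, rose by 1.66 and 1.48 (edgeR FDR 0.0317 and 0.0234). Dmc1, Sycp1, Sycp2, Msh5 and Smc1b completed the 11, with log2 fold changes of 1.09 to 1.35. The genes that fell were Dmrtb1 (-1.33, SE 0.25, edgeR FDR 0.0178), which acts at the transition from spermatogonia to meiosis, and Sohlh1 (-1.11, SE 0.25, edgeR FDR 0.0291), a regulator of spermatogonial differentiation.

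Stra8 itself, at 0.46, and the cohesin Rec8, a target of retinoic acid, at -0.35 (SE 0.29, edgeR FDR 0.470), were not called beside these genes. Neither were Dazl (0.83, SE 0.29, edgeR FDR 0.101), an RNA-binding protein that makes germ cells competent for meiosis, Dmrt1 (-0.84, SE 0.32, edgeR FDR 0.124), which restrains meiosis in spermatogonia, or Kit (-0.43, SE 0.23, edgeR FDR 0.254), the receptor of differentiating spermatogonia. Of the 41 list genes, 7 also belong to the 8 L/Z spermatocyte markers, whose summed CPM was 1659 and 3346 in WT, 1960 and 3110 CPM in Pld6 KO and 6461 and 5580 CPM in Dnmt3l KO, and 4 to the spermatogonia markers. The part of cell composition in these changes was not tested. Leaving out single libraries moved the count of 13 to 2 (WT replicate 1), 19 (WT replicate 2), 0 (Dnmt3l KO replicate 1) and 6 (Dnmt3l KO replicate 2), with list medians between 0.54 and 0.92, and the offset for GC content and length left 5. In L/Z Pld6 KO 0 of 40 were called by edgeR and 1 by DESeq2, beside 33 and 90 of all 14662 genes. An unadjusted p-value under 0.05 (edgeR) was found for 8, beside 9.17% of all genes, and the median was 0.06. The smallest p was that of Meioc (1.15, SE 0.28, edgeR FDR 0.212). Between the L/Z mutants 0 of 40 were called by edgeR and 7 by DESeq2, beside 7 and 355 of all 14662 genes. An unadjusted p-value under 0.05 (edgeR) was found for 21, beside 17.5% of all genes, with Dmc1 leading (1.41, SE 0.30, edgeR FDR 0.102).

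**Figure D4:**
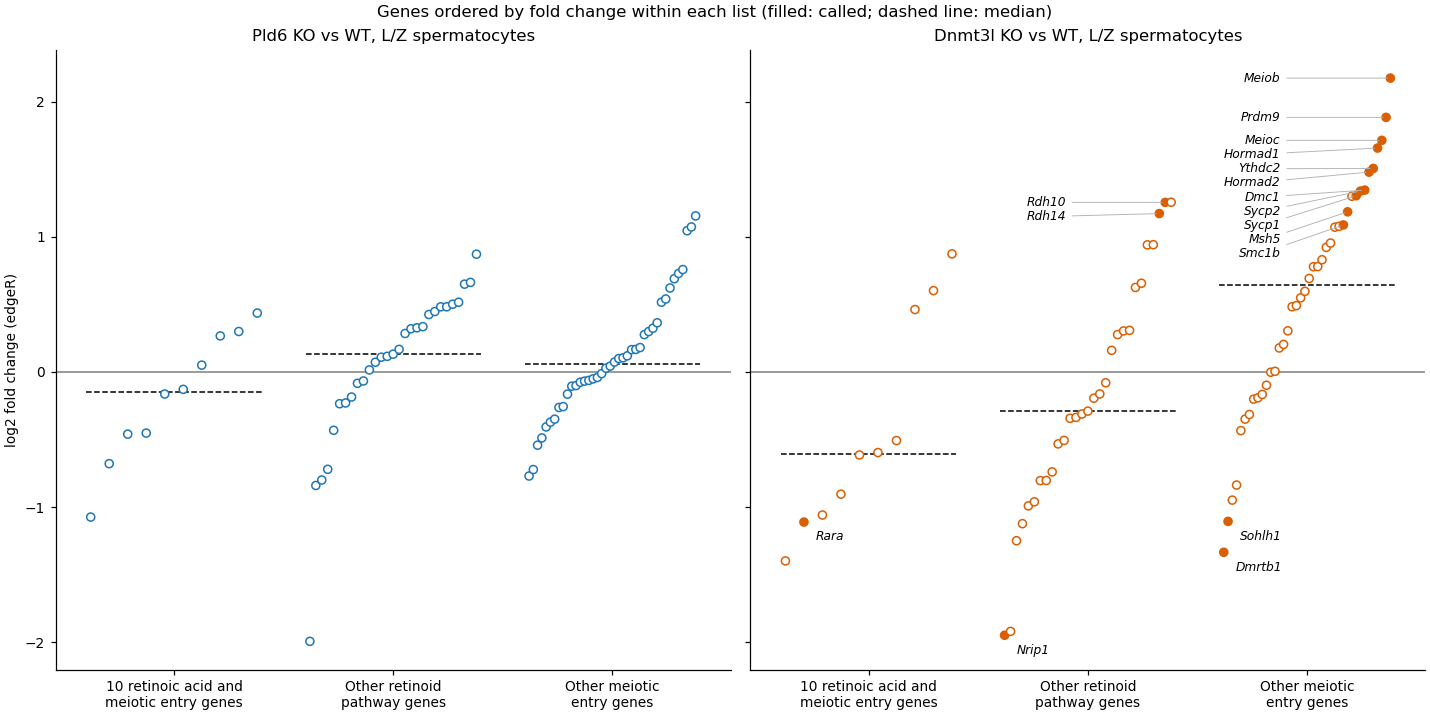
Log2 fold change against WT in L/Z spermatocytes (edgeR) of the 10 genes, 29 other retinoid genes and 40 other meiotic entry genes, ordered within each list, with called genes filled and named and the median dashed. In Dnmt3l KO (right) the meiotic entry median is 0.64, while the median of the 10 genes is -0.61.

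**Figure D5:**
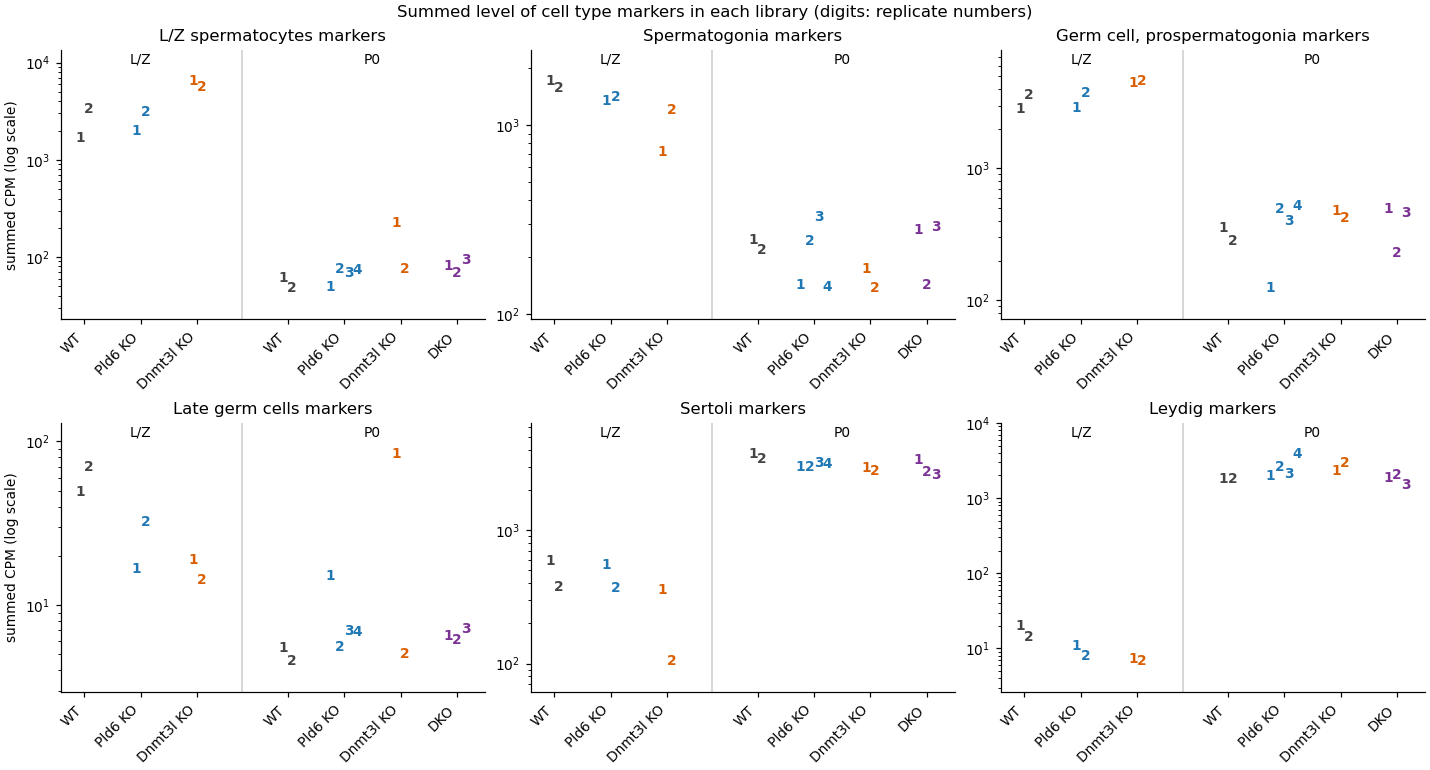
Summed CPM of 6 marker lists in every library on log axes, with each library drawn as its replicate number. L/Z Dnmt3l KO has the highest L/Z marker sums (6461 and 5580), and P0 Dnmt3l KO replicate 1 the highest late germ cell sum at P0 (83.8, with 65.7 from Ldhc).

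At P0 0 of 40 meiotic entry genes were called by edgeR in any comparison. Against WT, 2, 10 and 4 had an unadjusted p-value under 0.05 in Pld6 KO, Dnmt3l KO and DKO, beside 5.06%, 12.9% and 7.97% of all genes. Against Pld6 KO and Dnmt3l KO, 2 and 9 had one in DKO, beside 6.02% and 17.8% of all genes. In Dnmt3l KO the median log2 fold change was 0.44, with Sycp1, a protein of the synaptonemal complex, at 1.76 (SE 0.43, edgeR FDR 0.256). DESeq2 called 2 in Dnmt3l KO, beside 71 of all 15901 genes, and 0 in the other P0 comparisons. Sycp1 had 600 counts in Dnmt3l KO replicate 1 and 193 counts in replicate 2, with 129 and 114 counts in WT, at near-equal depth. The 8 L/Z markers summed to 225 and 75.3 CPM in the same 2 libraries, and their part in these values was not tested. Without replicate 1 the median fell to 0.13 and Sycp1 was at 0.70 (SE 0.35), and without replicate 2 Sycp1 was at 2.33. For DKO against Dnmt3l KO the list median was -0.23, and it turned to 0.05 without replicate 1 of Dnmt3l KO. Nanos2, an RNA-binding protein that keeps male germ cells out of meiosis, showed the smallest p-value in each comparison of DKO. It had 17, 11 and 66 counts in DKO and 0 to 3 in the other 8 P0 libraries, so that the groups did not overlap. Against the floor of 3 counts a library, its mean of 1.80 CPM in DKO was at least 7.12-fold higher than WT, 6.91-fold higher than Pld6 KO and 6.89-fold higher than Dnmt3l KO. It was not called (edgeR FDR 0.244, 0.442 and 0.0954). Summed prospermatogonia markers, which include Nanos2, were 227 to 489 CPM in DKO and 279 and 353 CPM in WT. Ythdc2 differed in its Dnmt3l KO effect between stages by 1.57 (SE 0.33, edgeR FDR 0.0446), with 1.51 at L/Z and -0.10 at P0.

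The genes whose levels were most like those of Stra8 over the 6 L/Z libraries, by Pearson's r of log2 CPM among 11030 genes averaging 50 counts or more, were Kctd13 (0.996), Lrrc42 (0.994), Bloc1s5 (0.978) and Dcps (0.974). For Cyp26b1 over the 11 P0 libraries, among 12546 genes, they were Kif21b (0.939), Gm10532 (0.927), Cc2d1a (0.927) and Crtc2 (0.921). These are descriptions, chosen as the highest of many values, over libraries of a single stage that differ in depth.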

How the data were processed

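Per the labels and the study's methods, strand-specific polyA(+) libraries were sequenced with single-end 50-base reads (L/Z) or paired-end 100-base reads (P0), and the authors aligned them with TopHat2 to mm10 and quantified RefSeq genes with Cuffdiff, versions not given in the sources used here. The authors deposited expected counts (raw fragments, 97.77% and 97.67% whole, rounded here) and FPKM for each library. The tables number replicates from 0 and the labels from 1, and 0 was taken as 1. Genes with a status other than OK (6 at L/Z, 2 at P0) were left out.

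All groups of a stage were fitted together with edgeR 4.0.16 in R 4.3.3 (filterByExpr, TMM, quasi-likelihood test, Benjamini-Hochberg FDR over 14662 genes at L/Z and 15901 at P0). A gene was called at an FDR under 0.05 and over 2-fold. The stage difference was fitted over 14 libraries and 16547 genes, with no fold threshold. CPM are TMM-normalised. Alternatives used DESeq2 1.42.0, limma 3.58.1 on log2(FPKM + 1) and log2(FPKM + 0.1), other filters and designs, and each library left out. The code was tested on simulated data. Promoters came from RefSeq (GRCm38.p6), with none for Crabp2, and Meiosin was not analysed here. Counting error at low counts limits Rarb, Crabp2 and Stra6 at L/Z and Stra8 and Rbp4 at P0.

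The members and gene lists were chosen with earlier results of these data known. Named were all 10 members, Pld6, Dnmt3l and a set list of regulators (here Rec8, Meioc, Dazl, Nanos2, Dmrt1, Kit, Rdh10, Dhrs3, Lrat, Rbp4, Rxra, Rxrb and Rxrg). From each list the called genes were named, up to 6 in each direction by fold change, or up to 3 with the smallest p where none was called. Some genes that this rule names are not reported here. Genes named beyond these were picked with their values in view.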

Additional observations from a re-analysis of the deposited data

Results flagged for a closer look

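In P0 Pld6 KO, replicate 3 lay apart from the other 3 libraries for Rarg, with 16.7 CPM against 30.6 to 31.6 CPM. In the same group replicate 1 lay apart for Dazl, with 48.4 CPM, and this library also had the lowest summed prospermatogonia markers at P0 (123 CPM). Of 24 values tested for an outlying library these were the 2 found, and chance gives about 1 in 20.

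The Dnmt3l KO effect differed between the stages for Rbp4, by -2.04 on the log2 scale, and for Ythdc2, by 1.57 (edgeR FDR 0.0445 and 0.0446). Rbp4 was called under 5 of 12 alternatives, with an FDR from 0.00583 (DESeq2) to 0.215 (edgeR without P0 WT replicate 1). Ythdc2 was called under 4 of 12, with an FDR from 0.00156 to 0.186 under the same 2 settings. The Pld6 KO effects, set against the same WT libraries, differed by -2.01 for Rbp4 and 1.02 for Ythdc2 and were not called (edgeR FDR 0.175 and 0.408). Stage cannot be told apart from cell composition, sorting and read type.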

How the results depend on the processing

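In L/Z Dnmt3l KO against WT, 1 of the 10 genes was called. The count was 3 with no filter on low counts, with the DESeq2 Wald test and with the 2 compared groups alone, 0 with limma on log2(FPKM + 1) and 0 with the offset for GC content and length. With 1 library left out it ranged from 0 to 3. Of the retinoid genes 3 were called, with 1 under limma and 1 with the factor for Rn45s-rich libraries, and 0 to 5 with 1 library left out. Of the meiotic entry genes 13 were called, with 8 under limma, 5 with the GC and length offset, and 0 to 19 with 1 library left out. At L/Z the deviations of same-numbered libraries correlated for the WT with Pld6 KO pairing (r = 0.485), where each replicate 1 is Rn45s-rich, but not for Dnmt3l KO with either group (r = -0.144 and -0.135). With 2 numbers a group they were not taken as pairs, and the replicate block gave 3 of the 10 genes in Dnmt3l KO and 24 genes in all in Pld6 KO. The block with crossed Dnmt3l KO numbers gave 2 of the 10 genes, 5 retinoid genes and 1282 genes in all. The offset and the crossed block were chosen after seeing the data. The causes were not tested. In the other comparisons 0 of the 10 genes were called under any alternative run. Of 1476 alternative values for the 10 genes, 0 reversed a call and 85 changed sign without a call. A reversal needed both a call and a change of sign, and few values were called, so the count of 0 says little.

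Counts over all genes moved more. In L/Z Pld6 KO 33 genes were called (1 to 101 over the alternatives, 7 to 74 with 1 library left out), in L/Z Dnmt3l KO 802 (294 to 1282, and 1 to 1139) and between these mutants 7 (2 to 516, and 0 to 137). At P0 the counts were 1 in Pld6 KO (0 to 14), 0 in Dnmt3l KO (0 to 71), 2 in DKO (1 to 102), 0 for DKO against Pld6 KO (0 to 6) and 12 against Dnmt3l KO (0 to 258). The stage difference was called in 2 genes for Pld6 KO (2 to 45) and 110 for Dnmt3l KO (28 to 699). The P0 and stage ranges do not include the fits with 1 library left out, where both stage counts fell below these ranges.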
